A study of Rattus norvegicus with 24 samples.

Results

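The nuclear genes for the subunits of oxidative phosphorylation were followed in the renal cortex and renal medulla of lithium-fed and control rats. Members were the transcript clusters whose single gene symbol began with Nduf, Uqcr, Cox4i, Cox5, Cox6, Cox7, Cox8 or Atp5, or was Sdha, Sdhb, Sdhc or Sdhd. This gave 91 clusters for 80 genes, out of 28894 clusters and 14324 named genes. The 80 genes were 74 subunits, 3 complex I assembly factors (Ndufaf1, Ndufaf3 and Ndufaf4), the ATP synthase inhibitor Atp5if1 and 2 pseudogenes, Cox6c-ps1 and Ndufs6-ps1. The subunits comprised 33 genes of complex I, 4 of complex II, 7 of complex III, 15 of complex IV and 15 of complex V. A gene with several clusters was represented by the one with the highest mean over the 24 arrays. Ndufa4 was kept with complex I because of its symbol, although its protein is now counted with complex IV. Cyc1, Cox6b1 and Cox7a1 had no cluster of their own symbol and were not analysed here.

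All animals were male Wistar rats, whose age is not given in the sources used here. Treatment lasted 6 months. Lithium was given in the food of 6 rats, at 40 mmol per kg for 7 days and at 60 mmol per kg afterwards, together with a salt block. The 6 control rats ate a standard rodent diet without lithium. The array notes name only the 60 mM diet. Each rat gave 1 cortex array and 1 medulla array, from portions of the tissue cut from frozen kidney. Each array therefore reads a mixture of all cells in its sample. The study asked whether a fibrosis classifier built on metzincins and related genes has diagnostic value in this rat model. The comparisons here were lithium against control in each tissue, and medulla against cortex in the control rats.

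In oxidative phosphorylation, complexes I and II take electrons from NADH and succinate and pass them through complex III and cytochrome c to oxygen at complex IV. Complexes I, III and IV pump protons across the inner mitochondrial membrane, and complex V, the ATP synthase, uses the return flow to make ATP. In the kidney this pathway powers sodium transport and is best known from the mitochondria-rich proximal tubule and thick ascending limb, whereas the inner medulla relies largely on glycolysis. A shift in the mixture of cells and a shift in RNA per cell cannot be told apart in such samples.

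A level is the deposited log2 signal, and a centred level is that signal minus the median of its array. Array medians lay between 5.75 and 5.83 in cortex and between 6.12 and 6.22 in medulla. Levels of different clusters were not set against each other. A cluster was tested in a tissue where it reached a log2 level of 6 on at least 4 of 12 arrays, which 74 members did in cortex and 76 in medulla. Cox4i2, Cox8b, Cox8c and Cox6c-ps1 were below this level in both tissues, and Cox6a2 and Cox6b2 passed in medulla only. The cortex array of lithium-treated animal 17 held the mean of its group in every cluster, to within 8e-05, and carried no value of its own, so that lithium cortex had n = 5. The tissue labels fitted the marker genes, since 15 of 15 proximal tubule genes were lower and 5 of 5 inner medulla genes were higher in control medulla than in control cortex.

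In control rats most of the respiratory chain was lower in medulla than in cortex, relative to the array median. Of 76 members, 42 were called lower and 3 higher at an adjusted p under 0.05 (limma). Among all 16388 clusters tested, 61.6% were called, 21.5% lower and 40.1% higher. The median difference, medulla minus cortex on the centred log2 scale, was -0.42 over the members and 0.14 over all clusters. All 4 complex II genes were called lower, with a median difference of -0.76. In complex V, 12 of 15 genes were called lower and none higher (median -0.53). In complex III, 4 of 7 were called lower (median -0.46), and in complex IV 6 of 12 were lower and 1 higher (median -0.41). Complex I was the most mixed, with 14 of 33 lower and 2 higher (median -0.35). In 19 members every control medulla array lay below every control cortex array, which is 25% of the members against 12.8% of all clusters.

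**Figure D1:**
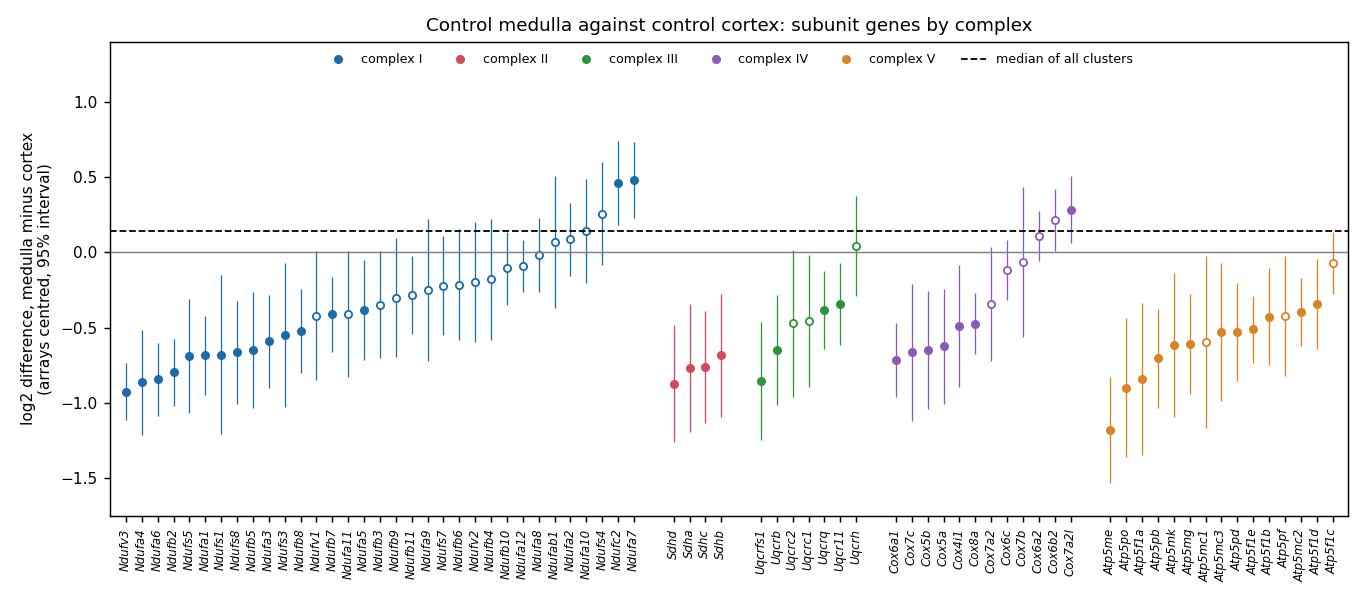
Difference between control medulla and control cortex (vertical axis, centred log2 scale, 6 arrays per tissue) for the 71 subunits that passed the filter, by complex, with 95% confidence intervals from limma, filled points for adjusted p under 0.05 and a dashed line at the median of all clusters (0.14). Most points lie below 0, all 4 complex II genes among them, and Ndufa7 and Ndufc2 lie highest.

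Complex II, succinate dehydrogenase, links the tricarboxylic acid cycle to the chain. For Sdhd, which with Sdhc anchors the enzyme in the membrane, the centred level was 3.77, 3.90 and 3.98 (lowest, median and highest) in control cortex and 2.41, 3.07 and 3.62 in control medulla. Every medulla array was below every cortex array, and the difference was -0.87 (SE 0.181, adjusted p = 0.00094, limma), a fold of 0.547. Sdha, the flavoprotein that oxidises succinate, had centred levels of 3.96, 4.05 and 4.17 in cortex and 2.57, 3.35 and 3.91 in medulla, again without overlap (difference -0.76, SE 0.198, adjusted p = 0.00436, limma). Sdhc (-0.76, SE 0.173) and Sdhb, the iron-sulphur subunit (-0.68, SE 0.190), were called lower too, but in both genes the highest medulla array reached into the cortex range.

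In complex I the largest difference was that of the chosen cluster of Ndufv3, an accessory subunit beside the NADH-binding site. Its centred level was 4.43, 4.49 and 4.56 in control cortex and 3.27, 3.55 and 3.78 in control medulla. The groups were far apart for their spread, with a difference of -0.92 (SE 0.087, adjusted p = 1.17e-06, limma), a fold of 0.527. The other Ndufv3 cluster was called lower too but by less (-0.38, SE 0.105, adjusted p = 0.00697, limma). Ndufa4 (-0.86, SE 0.162), Ndufa6 (-0.84, SE 0.114) and Ndufb2 (-0.79, SE 0.104), the last 2 of them accessory subunits, were also lower without overlap. Ndufs1, the large iron-sulphur subunit of the electron path, was called lower (-0.68, SE 0.245, adjusted p = 0.0271, limma), while Ndufv1, the subunit that binds NADH, missed the threshold (-0.42, SE 0.198, adjusted p = 0.0809, limma).

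The accessory subunits Ndufa7 and Ndufc2 went the other way. Ndufa7 had centred levels of 1.38, 1.96 and 2.11 in control cortex and 2.28, 2.35 and 2.64 in control medulla, so that every medulla array was above every cortex array (difference 0.48, SE 0.117, adjusted p = 0.00287, limma). Ndufc2 had centred levels of 3.90, 4.04 and 4.23 in cortex and 4.20, 4.43 and 4.98 in medulla, with a small overlap (difference 0.46, SE 0.129, adjusted p = 0.00732, limma). These were the only members called higher under each of the 3 scalings tried.

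In complex III, Uqcrfs1, the Rieske iron-sulphur protein, had centred levels of 2.68, 3.03 and 3.09 in control cortex and 1.44, 2.24 and 2.64 in control medulla, without overlap (difference -0.86, SE 0.183, adjusted p = 0.00116, limma). Uqcrb, an accessory subunit near the ubiquinone site, was lower as well (-0.65, SE 0.171). The core subunits Uqcrc1 (-0.46, adjusted p = 0.0651) and Uqcrc2 (-0.47, adjusted p = 0.0877) did not pass in limma, and Uqcrh, the hinge protein beside cytochrome c1, had an estimate of 0.04.

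In complex IV, Cox6a1, the widely expressed form of subunit VIa, had centred levels of 5.54, 5.67 and 5.80 in control cortex and 4.66, 4.91 and 5.29 in control medulla. No medulla array reached the cortex range (difference -0.71, SE 0.113, adjusted p = 0.000114, limma). Cox7c (-0.66, SE 0.211), Cox5b (-0.65, SE 0.183), Cox5a (-0.62, SE 0.177), Cox4i1 (-0.49, SE 0.188) and Cox8a (-0.47, SE 0.095) were called lower, whereas Cox7b (-0.06) and Cox7a2 (-0.34, adjusted p = 0.108, limma) were not. Cox7a2l, which joins complexes III and IV into supercomplexes, was the only complex IV gene called higher in medulla in this fit. Its centred level was 2.86, 3.06 and 3.28 in cortex and 3.11, 3.33 and 3.60 in medulla, an overlap that left a difference of 0.28 (SE 0.104, adjusted p = 0.029, limma).

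The paired isoforms of complex IV that are known from other tissues were below the level for testing or, in medulla, just above it. Cox6a2, a muscle isoform, had levels of 5.60, 5.71 and 5.82 in control cortex and 6.04, 6.13 and 6.40 in control medulla. Cox6b2, a testis isoform, had 5.42, 5.56 and 5.80 in control cortex and 5.87, 6.14 and 6.43 in control medulla. Every medulla array was above every cortex array on this deposited scale, on which both were called higher (0.47 and 0.57). Neither was called after centring. On the deposited scale 68.7% of all clusters were called higher in medulla, where array medians are higher. Both genes reached 6 on 0 cortex arrays and on 11 medulla arrays, so that medulla alone brought them into the test. The separation and the deposited calls therefore cannot show a difference particular to these 2 genes. Cox4i2, the lung isoform of subunit IV, had levels of 4.48, 4.87 and 5.07 in control cortex and 5.03, 5.50 and 5.58 in control medulla. Cox8c, another testis isoform, stayed under 6 on all arrays. Cox8b, a muscle isoform, had levels of 5.09, 5.46 and 5.82 in control cortex, and on 1 lithium cortex array, that of animal 19, it reached 6.94. On that array the summed level of the striated muscle and fat markers was 10.95, against at most 8.73 on the other cortex arrays, and its part in the Cox8b value was not tested.

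Complex V held the largest difference of all members. Atp5me, the small subunit e at the contact between ATP synthase dimers, had centred levels of 1.48, 1.72 and 2.01 in control cortex and 0.15, 0.59 and 1.07 in control medulla. No arrays overlapped, and the difference was -1.18 (SE 0.164, adjusted p = 3.68e-05, limma), a fold of 0.441. Atp5po, the stalk protein known as OSCP (-0.90, SE 0.216), the catalytic-head subunit alpha Atp5f1a (-0.84, SE 0.235) and the stalk subunit Atp5pb (-0.70, SE 0.152) were lower without overlap as well. Atp5f1b, the catalytic beta subunit, was lower by less: its centred level was 5.87, 5.90 and 5.96 in cortex and 4.92, 5.56 and 5.91 in medulla (difference -0.43, SE 0.150, adjusted p = 0.0239, limma). Of the genes for subunit c of the membrane ring, Atp5mc3 (-0.53) and Atp5mc2 (-0.40) were called lower and Atp5mc1 (-0.59, adjusted p = 0.0665, limma) was not. The other Atp5mc2 cluster missed the threshold (-0.21, adjusted p = 0.0965, limma). Atp5if1, which stops the synthase from running backwards, was lower too (-0.48, SE 0.102, adjusted p = 0.00109, limma).

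**Figure D2:**
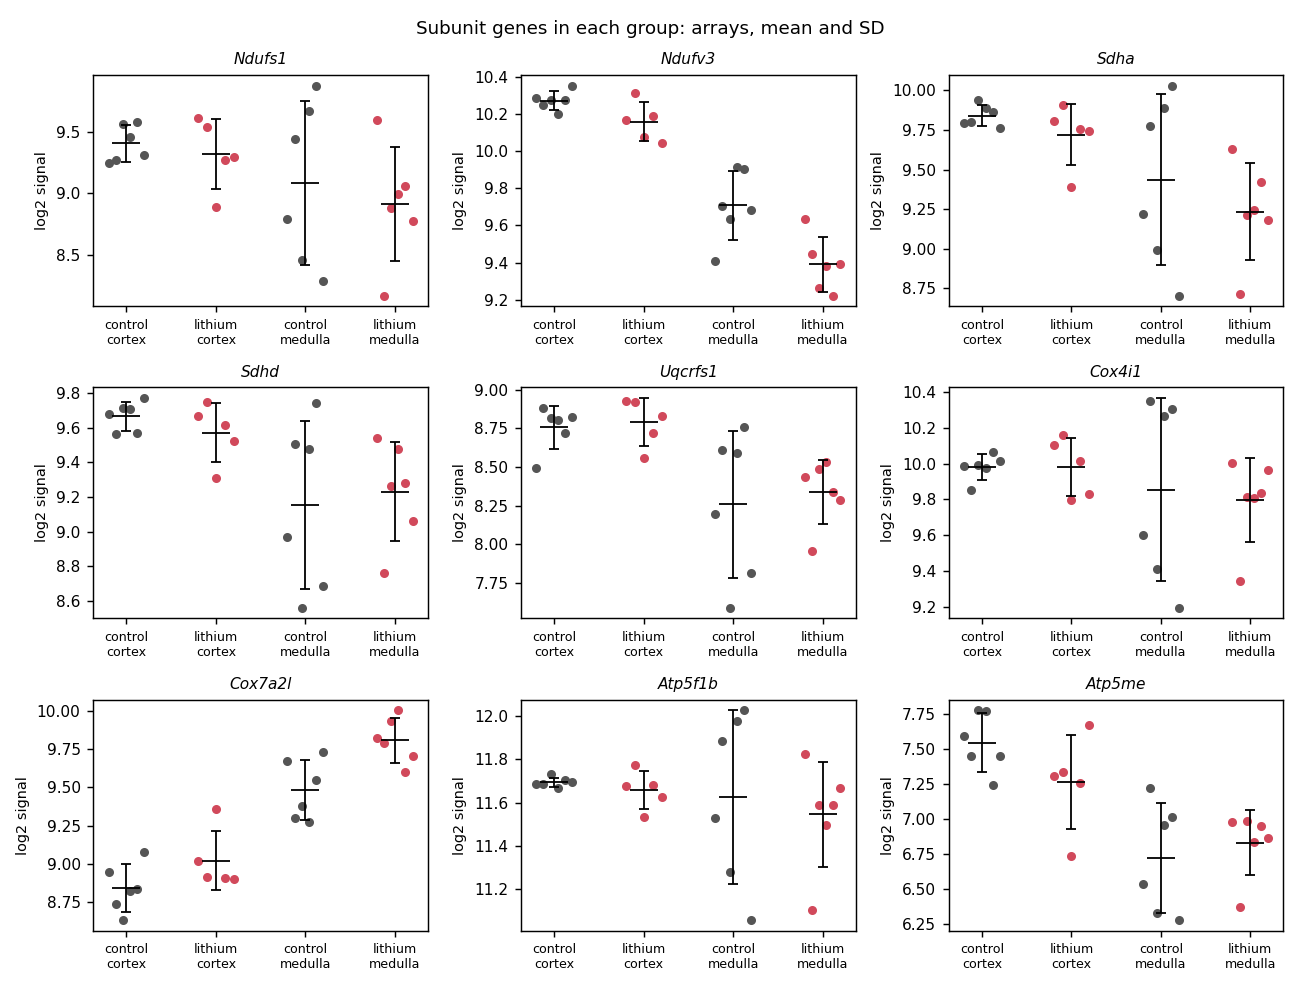
Deposited log2 signal of 9 members on each array, by group (control and lithium, cortex and medulla; 1 point per animal, lines at the mean, bars of 1 SD). Medulla arrays are more spread than cortex arrays in most of these genes, and the lithium and control points overlap in every panel.

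The direction of the tissue difference depended on the scale for many members. On the deposited scale, where medulla arrays have higher medians, 12 members were called lower and 14 higher, and the median over the members was -0.07 against 0.50 over all clusters, of which 78% were called, 9.35% lower and 68.7% higher. With quantile normalization repeated over all 24 arrays, 42 were called lower and 3 higher (27.1% and 32.6% of all clusters, 59.7% in all), with a median of -0.45 against 0.05. The 12 members called lower under all 3 scalings were Atp5me, Atp5pb, Atp5po, Cox6a1, Ndufa1, Ndufa4, Ndufa6, Ndufb2, Ndufv3, Sdhc, Sdhd and Uqcrfs1. No member was called lower on the centred and higher on the deposited scale. With the animal as a block, 42 were called lower and 4 higher (21.3% and 39.8% of all clusters, 61.1% in all). In a fit over all 24 arrays with scan groups, 37 were called lower and 3 higher (19.8% and 37.3% of all clusters, 57.1% in all). Uqcr11, a small complex III subunit called lower after centring (-0.34), had an estimate of 0.02 on the deposited scale. It did not pass in the fit over all 24 arrays with scan groups (adjusted p = 0.0655, limma).

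Some calls rested on single rats or on the scaling. With quantile normalization repeated, Atp5f1b (-0.09) and Cox8a (-0.06) were near 0, and Cox4i1 (-0.43, adjusted p = 0.0930), Cox7a2l (0.21, adjusted p = 0.116) and Uqcr11 (-0.12, adjusted p = 0.445) no longer passed (limma). Ndufs1, Cox4i1, Atp5f1b, Uqcr11 and Atp5mc3 lost their call without control animal 1, 15 or 30, and Atp5mc3 also without 13 or 16. Cox7c and Uqcrq lost it without 15 or 30, and Cox7a2l without 1, 15 or 29. Uqcrc1 and Atp5mc1 gained a call without 16 or 29. The 4 complex II genes, Ndufv3, Uqcrfs1, Cox6a1 and Atp5me kept theirs whichever control animal was left out. On the deposited scale, however, Sdha (-0.41, adjusted p = 0.0752) and Sdhb (-0.32, adjusted p = 0.132) did not pass (limma).

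The difference between tissues was uneven from rat to rat. In control animals 15, 30 and 1 the median medulla-minus-cortex difference over the 71 subunits was -0.92, -0.94 and -0.58 on the centred scale, with 65, 66 and 59 subunits below 0. In control animals 13, 16 and 29 it was -0.08, -0.13 and -0.07, with 41, 45 and 42 below 0. Controls 1 and 13, 15 and 16, and 29 and 30 shared scan groups in both tissues, and because the authors removed scan date, arrays of a scan group balance around their group means by construction. The number of rats on either side is therefore not independent of that step. Lithium-treated animals 18, 21, 22, 19 and 6 had medians of -0.61, -0.43, -0.39, -0.24 and -0.20. Complex II was below 0 on the centred scale in each of the 11 rats, with medians between -1.39 and -0.19. On the deposited scale the sign over the 71 subunits differed between rats. There the medians were 0.28, 0.26 and 0.29 in controls 13, 16 and 29, and -0.25, -0.545 and -0.60 in controls 1, 15 and 30. In lithium-treated animals 6, 18, 19, 21 and 22 they were 0.21, -0.18, 0.12, -0.03 and 0.02.

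The spread between rats was wider in medulla than in cortex. Within the control group, the median SD of the subunits was 0.113 in cortex and 0.402 in medulla, where the median SD of all clusters was 0.159 and 0.190. In lithium medulla it was 0.280 for the subunits and 0.188 for all clusters. Subunits moved together on an array: relative to the control mean, 70 of 71 were lower in the medulla of control 15 (median deviation -0.34), 67 in control 30 (-0.47), 65 in control 1 (-0.15) and 64 in lithium-treated 17 (-0.44). In controls 29, 16 and 13 and in lithium-treated 6, the median deviations were 0.45, 0.32, 0.26 and 0.34, with 5, 5, 7 and 3 subunits lower. The other 4 lithium-treated rats lay between -0.04 and 0.02. The balance within scan groups holds for these deviations as well, so that they are not independent between arrays.

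**Figure D3:**
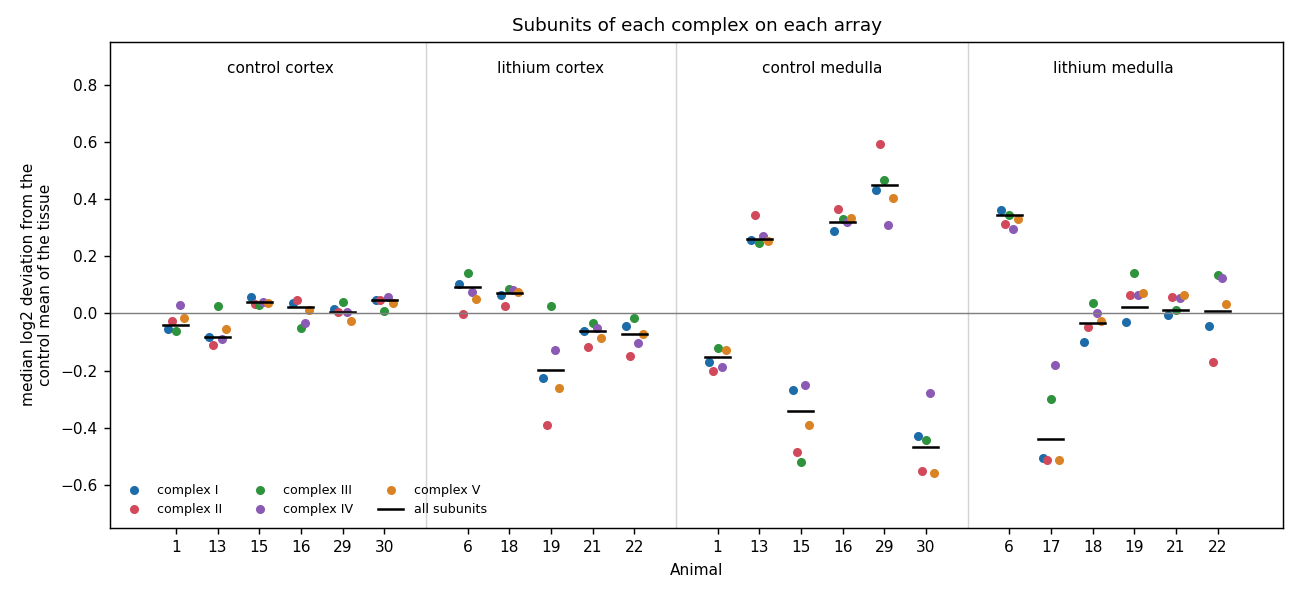
Median deviation of the subunits of each complex (coloured points) and of all subunits (black lines) from the control mean of the same tissue (log2), on each array with its own value. Cortex arrays stay close to 0, with lithium-treated animal 19 lowest, while medulla arrays run from -0.47 (control 30) to 0.45 (control 29) in the median over all subunits.

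Markers of tubule segments differed between the same medulla samples. The summed level of 10 thick ascending limb and distal convoluted tubule genes (log2) was 11.15 in lithium-treated 17, 11.58 in control 30 and 12.45 in control 15, the arrays with the lowest subunit levels. It was 13.90 in lithium-treated 6 and 14.05, 14.64 and 14.05 in controls 13, 16 and 29, the arrays with the highest. Lithium-treated 18 was an exception, with 11.68 and a subunit deviation near 0, and control 1 had 13.62 with a deviation of -0.15. The removal of scan date balances arrays of a scan group gene by gene, in markers and subunits alike. Low and high arrays are therefore not independent of each other. Proximal tubule markers were highest in control 29 (12.90) and ran from 10.71 to 12.16 on the other medulla arrays, against 14.40 to 14.99 in cortex. The inner medulla list was highest in controls 30, 1 and 15 (13.88, 13.73 and 13.42) and ran from 11.97 to 13.12 on the others. The intercalated cell list ran from 10.44 (control 30) to 13.58 (control 29) in control medulla. With lithium it ran from 13.22 (animal 17) to 14.42 (animal 22). In medulla 3 of 11 genes of that list were called higher with lithium (limma, median log2 fold change 1.32), where 1.19% of all clusters were called. The leukocyte list also had 3 of 10 genes called higher there (limma, median 0.83). No gene of the proximal tubule, thick ascending limb and distal convoluted tubule or inner medulla list was called (medians -0.67, -0.65 and -0.63). At an unadjusted p under 0.05, 8 of 15, 1 of 10 and 4 of 5 genes of these 3 lists were lower and none higher (limma). Of all clusters 19.6% passed that threshold. The part of these lists in the subunit levels was not tested.

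**Figure D4:**
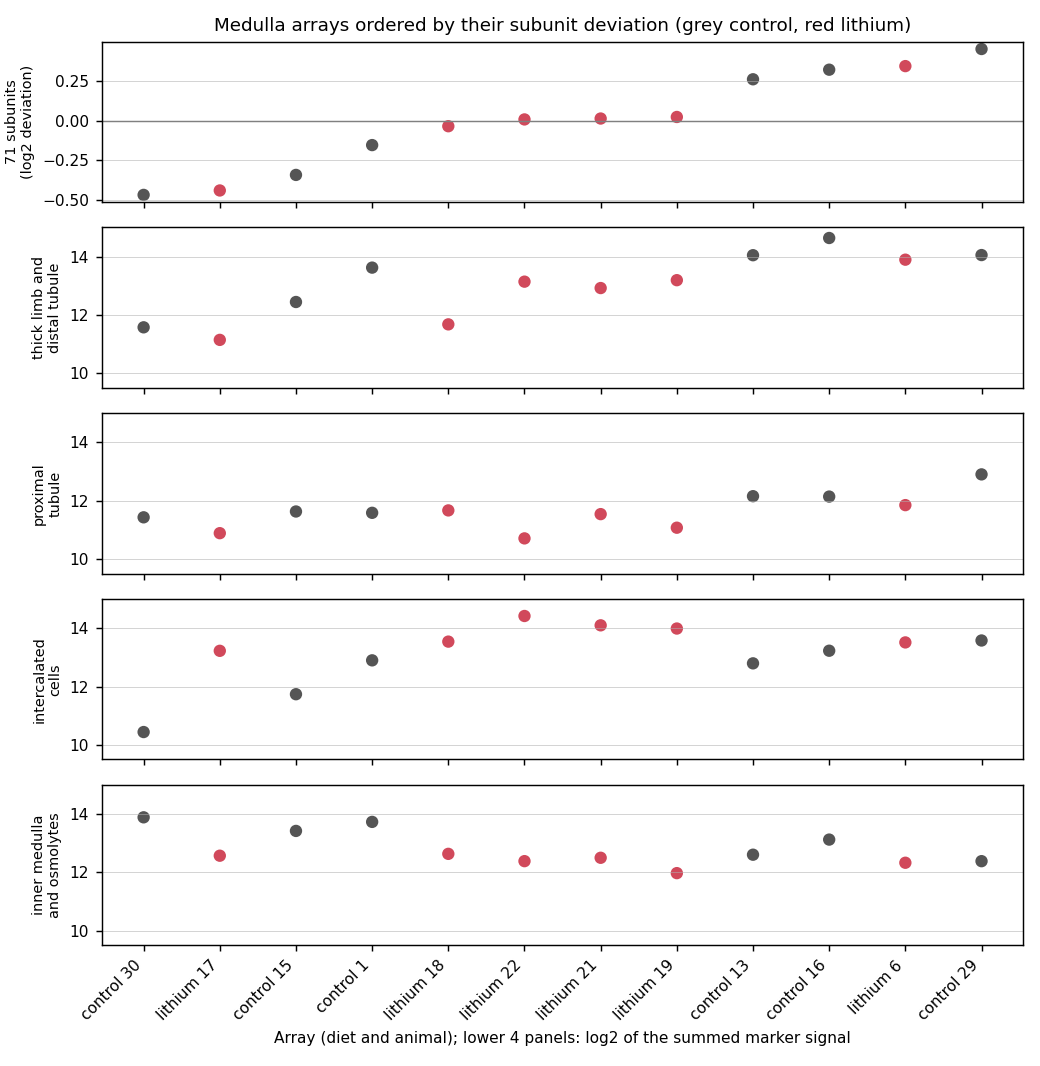
The 12 medulla arrays in the order of their median subunit deviation from the control mean (top panel, log2), with the log2 of the summed signal of 4 marker lists on the same arrays below (grey control, red lithium). The 4 arrays with the highest subunit levels have thick ascending limb and distal convoluted tubule levels of 13.90 or more, and lithium-treated 17 and control 30 have the lowest.

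With lithium, no member was called in cortex. Of 74 members, 0 passed an adjusted p under 0.05 and 0 an unadjusted p under 0.05, where 0.574% and 7.54% of the 13766 clusters did (limma). The median log2 fold change was -0.05 over the members and 0.01 over all clusters, and 26 estimates were above and 48 below 0. Medians by complex were -0.05 for complex I, -0.11 for complex II, 0.04 for complex III, -0.04 for complex IV and -0.06 for complex V. The data were tight enough to bound most members, since 72 of 74 confidence intervals lay within a 1.5-fold change in either direction. The smallest adjusted p was 0.692. Without scan groups 0 members were called as well, against 2.09% of all clusters.

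The largest estimates in cortex were within the spread of the rats. Sdhc had levels of 10.82, 11.01 and 11.14 in control cortex and 10.61, 10.77 and 11.00 in lithium cortex. Most lithium arrays were in the lower part of the control range or under it (log2 fold change -0.21, SE 0.100, 95% interval -0.43 to 0.01, adjusted p = 0.692, limma). The estimates of Sdha (-0.12), Sdhb (-0.11) and Sdhd (-0.10) had the same sign. Atp5me had the lowest estimate, with levels of 7.24, 7.52 and 7.78 in controls and 6.73, 7.31 and 7.67 with lithium, which overlap over most of their range (-0.28, SE 0.164). Ndufa7 had the highest, with 7.20, 7.73 and 7.90 in controls and 7.78, 7.89 and 8.21 with lithium (0.25, SE 0.140). In the remaining complexes the estimates ran from -0.14 for Uqcrb to 0.10 for Uqcrh in complex III and from -0.17 for Cox5a to 0.18 for Cox7a2l in complex IV.

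Cox5a, a subunit close to the entry site of cytochrome c, was the only member whose groups did not overlap in cortex (1.35% of members, 2.57% of all clusters). Its level was 10.42, 10.52 and 10.65 in control and 10.21, 10.40 and 10.42 in lithium cortex. The gap between the groups was narrow, and the change of -0.17 (SE 0.085, adjusted p = 0.709, limma) did not pass.

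Core subunits had estimates near 0 in cortex. Ndufs1 was at 9.24, 9.38 and 9.58 in control cortex and at 8.89, 9.30 and 9.61 in lithium cortex (-0.08, SE 0.138). Cox4i1 was at 9.85, 9.99 and 10.06 in control and 9.80, 10.01 and 10.16 in lithium cortex (-0.00, SE 0.096). Atp5f1b was at 11.67, 11.69 and 11.73 in control and 11.53, 11.68 and 11.78 in lithium cortex (-0.04, 95% interval -0.21 to 0.13). For each of these genes the lithium arrays spanned the control range.

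The sign of the cortex median changed when 1 array was left out. Lithium-treated animal 19 had 56 of 69 subunits below the control mean (median deviation -0.20), and without it the median over the members was 0.01. Animals 21 and 22 had 50 each below it (-0.06 and -0.07), and animals 6 and 18 had 23 and 17 (0.09 and 0.07). On the array of animal 19 the leukocyte list was at 12.66, the fibroblast and matrix list at 12.14 and the proximal tubule list at 14.40, the lowest of the cortex arrays. Their part in the subunit levels was not tested. By scan group, the median over the 69 subunits was 0.17 for lithium-treated 6 against controls 1 and 13, -0.10 for 18 and 19 against 15 and 16, and -0.10 for 21 and 22 against 29 and 30, so that its sign was not the same in each.

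In medulla no member was called with lithium either. Of 76 members, 0 passed an adjusted p under 0.05, against 1.19% of the 16025 clusters (limma). At an unadjusted p under 0.05 there were 3 higher and 2 lower members, where 19.6% of all clusters passed. The median log2 fold change was 0.00 over the members and -0.01 over all clusters, with 38 estimates above and 38 below 0. The fit used the deposited scale, on which array medians were 6.1213 to 6.1630 in control and 6.1635 to 6.2244 in lithium medulla. The balance around 0 therefore depends on this scale. Medians by complex were -0.07 for complex I, -0.04 for complex II, 0.08 for complex III, 0.03 for complex IV and 0.03 for complex V. Intervals were wider than in cortex, with a median SE of 0.202 against 0.103, and 47 of 76 lay within a 1.5-fold change. A change of that size could therefore have gone undetected in the remaining 29. Without scan groups 0 members were called, against 6.56% of all clusters. No member had groups without overlap, against 3.71% of all clusters.

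**Figure D5:**
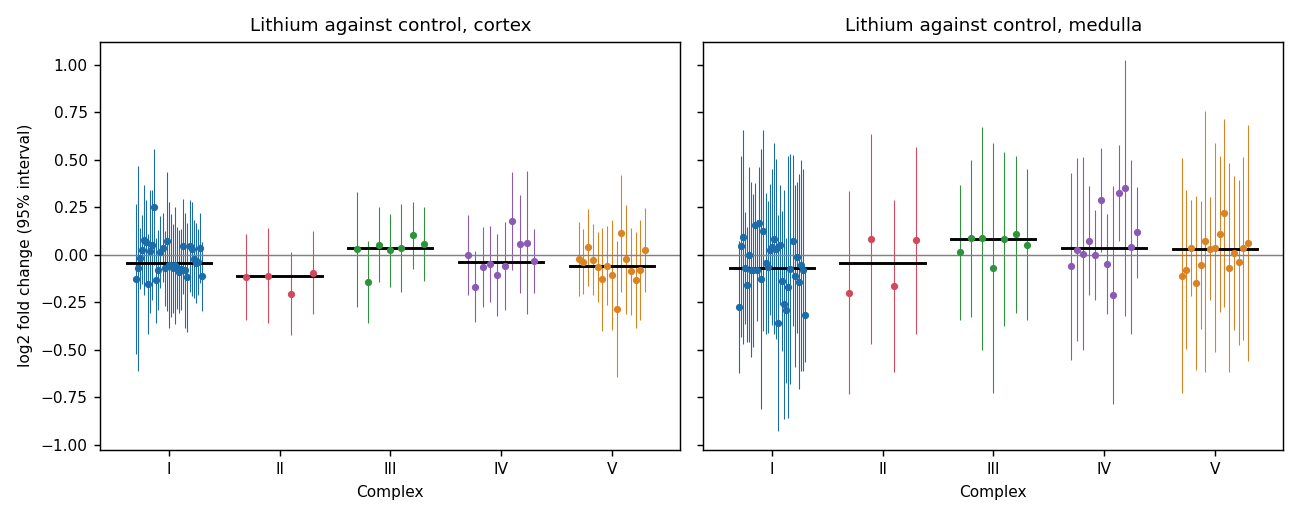
Log2 fold change of lithium against control for each subunit, by complex, in cortex and medulla (limma on the deposited values with scan groups; 1 point per gene with its 95% interval, black bars at the median of a complex). Points lie on both sides of 0 in both tissues, between -0.28 and 0.25 in cortex and between -0.36 and 0.35 in medulla.

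The members with an unadjusted p under 0.05 in medulla had small changes. Ndufv3 was at 9.41, 9.69 and 9.91 in control and 9.22, 9.39 and 9.64 in lithium medulla, with the lithium arrays in the lower part of a shared range (log2 fold change -0.32, SE 0.113, adjusted p = 0.159, limma). The other Ndufv3 cluster gave -0.17 (adjusted p = 0.510, limma) and was not among those at an unadjusted p under 0.05. Cox7a2l was at 9.27, 9.46 and 9.73 in control and 9.60, 9.81 and 10.01 in lithium medulla, and here the lithium arrays were in the upper part (0.32, SE 0.116, adjusted p = 0.159, limma). Within scan groups the change was -0.02, -0.45 and -0.48 for Ndufv3 and 0.32, 0.64 and 0.01 for Cox7a2l, so that in either gene 1 scan group was near 0. Cox6b2, close to the filter level, had 5.87, 6.14 and 6.43 in control and 6.25, 6.40 and 6.69 in lithium medulla (0.29, SE 0.125, adjusted p = 0.232, limma). Atp5if1 had 9.00, 9.20 and 9.33 in control and 9.26, 9.42 and 9.67 in lithium medulla (0.24, SE 0.102, adjusted p = 0.221, limma).

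Ndufaf1, an assembly factor for the membrane arm of complex I and not a subunit, had the lowest estimate of the members in medulla. Its level was 6.37, 6.52 and 6.70 in control and 5.63, 5.97 and 6.66 in lithium medulla. Of the 6 lithium arrays 5 were below the control range, and the one that reached 6.66 was that of animal 6. The change was -0.50 (SE 0.171, adjusted p = 0.146, limma), and -0.25, -0.66 and -0.60 within the scan groups. Without lithium-treated animal 6 it was -0.66 with an adjusted p of 0.0142 (limma), the only member called in that fit, in which 6.57% of all clusters were called and 3.71% called lower. The array left out there is the only lithium array inside the control range, so that this call is no separate support. In cortex the change of Ndufaf1 was -0.05 (SE 0.129).

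Subunits at the ends of the medulla range had wide intervals. Ndufb6, an accessory subunit of complex I, had the lowest subunit estimate, with levels of 8.96, 9.49 and 10.04 in control and 8.30, 9.13 and 9.91 in lithium medulla (-0.36, 95% interval -0.93 to 0.21). Cox7b had the highest, with 8.94, 9.80 and 10.31 in control and 9.12, 10.09 and 10.59 in lithium medulla (0.35, 95% interval -0.32 to 1.02). Both ranges overlapped over most of their length. In complex II the estimates were -0.20 for Sdha, -0.16 for Sdhc, 0.08 for Sdhd and 0.08 for Sdhb, with SEs of 0.207 or more. Uqcrfs1 (0.08, SE 0.209), Cox4i1 (-0.06, SE 0.225), Ndufs1 (-0.17, SE 0.315) and Atp5f1b (-0.08, SE 0.191) had estimates well inside their errors. By scan group the median over the 71 subunits was -0.09, 0.01 and 0.07.

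The effect of lithium was not shown to differ between the tissues for any member. The interaction term gave 0 of 76 members at an adjusted p under 0.05 and 0 at an unadjusted p under 0.05, against 0.0915% and 12.2% of 16388 clusters (limma). The median difference of the effects, medulla minus cortex, was 0.01, and the estimates ran from -0.45 for Ndufaf1 (adjusted p = 0.421, limma) to 0.39 for Atp5me (adjusted p = 0.545, limma).

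Lists of other mitochondrial genes were read on the centred scale, on which 21.5% of all clusters were called lower and 40.1% higher in control medulla. In the list of the tricarboxylic acid cycle and pyruvate dehydrogenase, 10 of 14 genes were called lower in medulla and none higher (median -0.52). On the deposited scale 2 were lower and 1 higher. The succinyl-CoA ligase genes Suclg2 (-1.13, SE 0.233), Suclg1 (-0.87, SE 0.134) and Sucla2 (-0.79, SE 0.228) had the largest differences. In fatty acid oxidation 13 of 17 were called lower and none higher (median -0.55), against 6 lower and 1 higher on the deposited scale. The largest differences were those of Decr1 (-1.36, SE 0.169), needed for unsaturated fatty acids, of Eci1 (-1.30, SE 0.088), an isomerase, and of the thiolase Acaa2 (-1.19, SE 0.159). Of the respiratory chain assembly factors 6 of 25 were lower (24%, near the share of all clusters) and 2 higher (median 0.04), and on the deposited scale 1 was lower and 15 higher. With quantile normalization repeated, 9 of them were lower (36%, against 27.1% of all clusters) and 1 higher (median -0.12). Ecsit, which acts on complex I, had the largest difference (-0.80, SE 0.144).

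Of the regulators of mitochondrial gene expression 5 of 18 were called higher and 5 lower in control medulla (27.8% each), and on the deposited scale 10 higher and 1 lower. With quantile normalization repeated, 3 were higher and 7 lower. Esrrb (1.49, SE 0.165), an orphan nuclear receptor, and Nrf1 (0.85, SE 0.086), a transcription factor known for respiratory genes, were higher. Ppara (-1.37, SE 0.324), a receptor that drives fatty acid oxidation, and Esrra (-0.56, SE 0.126) were lower. In the list of mobile carriers, exchangers and the inhibitor, 4 of 11 were lower and 2 higher (5 higher and 2 lower on the deposited scale). Cycs, cytochrome c (-1.04, SE 0.253), Slc25a4, an ADP/ATP carrier (-0.86, SE 0.234), and the outer membrane channel Vdac1 (-0.85, SE 0.162) were lower, and Ucp2, an inner membrane carrier, was higher (1.25, SE 0.153). With lithium 0 genes of the cycle, oxidation, assembly and regulator lists passed an adjusted p under 0.05 in cortex or in medulla (limma). At an unadjusted p under 0.05 none passed in cortex, and in medulla 2 assembly factors and 3 regulators did.

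Ucp2 was the single gene of these lists called with lithium. Its level on the control cortex arrays of animals 1, 13, 15, 16, 29 and 30 was 8.15, 7.95, 7.93, 7.77, 7.81 and 7.83. On the lithium cortex arrays of animals 6, 18, 19, 21 and 22 it was 8.43, 8.42, 9.11, 8.75 and 8.85. Every lithium array was above every control array, and the log2 fold change was 0.80 (SE 0.139, adjusted p = 0.0283, limma). The change was 0.69 without animal 19, and the adjusted p lay between 0.0179 and 0.116 when 1 array was left out. It passed without animal 1, 6, 18 or 19 and missed the threshold without 13, 15, 16, 21, 22, 29 or 30. With quantile normalization repeated the change was 0.78 (adjusted p = 0.0896, limma), and by the methods' two-way analysis of variance without limma's moderation the adjusted p was 0.197. In medulla the change was 0.73 (SE 0.204, adjusted p = 0.100, limma), which passed without animal 6 (adjusted p = 0.0344) or without scan groups (adjusted p = 0.0388), and its difference from the change in cortex did not pass (adjusted p of the interaction 0.925, limma).

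The promoters of the subunit genes were searched for letters bound by regulators of the pathway, in the 250 bases before the RefSeq start site (GRCr8, both strands). Of the 74 subunit genes 66 had a promoter in the table. The NRF1 motif, the 10 letters in capitals in the stretches printed here, was in 4 of them (6.06%, against 0.849% of 27457 promoters). The core of the ETS and GABP motif, CCGGAAG, was in 19 (28.8% against 7.74%), and AAGGTCA, bound by the oestrogen-related receptors, in 7 (10.6% against 3.77%). These shares describe letters and not binding. Shown are 80 bases around the NRF1 motif of the 4 genes that hold it, 3 of which encode ATP synthase subunits. Atp5me and Atp5po had the largest tissue differences in complex V, but Atp5f1a and Atp5pb, next in size, hold no match. A link between the motif and the tissue differences was not tested. Capitals mark the motif, and the strand is that of the gene.
Atp5me: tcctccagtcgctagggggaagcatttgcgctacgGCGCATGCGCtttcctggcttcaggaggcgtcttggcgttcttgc
Atp5po: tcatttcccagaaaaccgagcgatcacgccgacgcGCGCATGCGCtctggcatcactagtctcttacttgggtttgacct
Atp5mc2: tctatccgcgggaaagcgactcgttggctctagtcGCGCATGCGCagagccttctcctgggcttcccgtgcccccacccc
Ndufa11: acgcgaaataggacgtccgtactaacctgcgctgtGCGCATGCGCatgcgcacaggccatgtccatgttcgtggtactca

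The stretch of Atp5me lies at chr14:1464749-1464828 on the plus strand, with the motif 66 bases before the start site. That of Atp5po lies at chr11:44657498-44657577 on the minus strand (49 bases), and that of Atp5mc2 at chr7:135678230-135678309 on the minus strand (46 bases). The stretch of Ndufa11, an accessory subunit of complex I, lies at chr9:1637482-1637561 on the plus strand (87 bases) and holds a second, overlapping match. In control medulla against cortex the centred differences of these genes were -1.18 for Atp5me, -0.90 for Atp5po, -0.40 for Atp5mc2 and -0.41 for Ndufa11, which was not called (adjusted p = 0.0824, limma).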

How the data were processed

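The deposited values are log2 intensities of 28894 transcript clusters on 24 arrays, with no depth or counts behind them, so that precision rests on the number of arrays. The authors corrected the background by RMA, normalized by quantiles, took log2 and applied median polish, all with Partek, then removed scan date by an analysis of variance with treatment and averaged exon probe sets. The submitters' processing notes list rn4 as the build, and its coordinates were not used. The methods name both Rat Gene and Rat Exon arrays, and whether the tissues were normalized together is not given in the sources used here.

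Genes were named from 15097 clusters with 1 symbol in the platform annotation (323 had several and 13474 none). The members and lists were chosen with earlier results of these data known. Scan groups were recovered from combinations of arrays without residual variance and were not checked against dates: 3 in medulla and 4 in cortex, where animal 17 stood alone. Lithium was compared with control by limma 3.58.1 (R 4.3.3) with scan group as a factor. The tissues were compared over the 12 control arrays, each centred on its median, without scan group or animal as a factor. Because scan date had been removed before, that fit counts too many residual degrees of freedom. Its SEs and adjusted p can therefore be too small. The interaction was fitted over all 24 arrays with scan groups. Values were adjusted by Benjamini-Hochberg over all clusters that passed the filter. The fits were tested on simulated data.

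Genes named are, in each complex, up to 4 of the largest called differences or else the highest and lowest estimate, with paired isoforms, core subunits, complex II and up to 3 called genes of a list. Esrra, Vdac1, Uqcrc2, Uqcr11, Uqcrq, Ndufa11 and members at an unadjusted p under 0.05 were named after their values were seen. Alternatives were other scalings, no scan groups, no filter, the mean over clusters of a gene, fits without moderation, the animal as a block and leaving out each array. Cortex and medulla arrays were paired by the animal numbers in the labels. The correlation of their deviations from the group means ran from -0.0867 to 0.438 over 11 animals and was over 0.1 in 6. Promoters came from RefSeq on GRCr8.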

Additional observations from a re-analysis of the deposited data

Results flagged for a closer look

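Of 192 groups of values examined for a sample far from the others, 9 held one, and chance alone marks about 1 in 20. In lithium medulla the array of animal 17 was the lowest for Atp5me (6.37, nearest other array 6.84), Atp5po (8.39, nearest 9.16) and Cox4i1 (9.34, nearest 9.81). That array had 64 of 71 subunits below the control mean. In lithium cortex Cox7a2l was highest in animal 19 (9.36, nearest 9.02) and Uqcrh lowest in animal 22 (9.85, nearest 10.01). In control cortex Cox7b (9.06, nearest 9.39) and Ndufa7 (7.20, nearest 7.70) were lowest in animal 1, and Ndufv1 in animal 13 (9.59, nearest 9.67). In control medulla Ndufa7 was highest in animal 30 (8.77, nearest 8.51). All values are deposited log2 levels.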

How the results depend on the processing

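For lithium, 0 members were called in cortex and 0 in the interaction under every setting tried, and 0 in medulla except without lithium-treated animal 6, where Ndufaf1 was called (1 member). For medulla against cortex in controls, the 45 calls became 26 on the deposited scale (14 higher and 12 lower), where the median was 0.0119 for complex I and -0.0486 for complex IV, and where Uqcr11 turned to 0.0187. Medians at this scale carry the higher array medians of medulla. With the animal as a block, the pairing of the 2 tissues gave 46 calls (4 higher and 42 lower) in controls and 0 in the interaction, whose calls over all clusters went from 15 to 5. No paired analysis was possible because the diets were given to different animals, as far as lithium against control within a tissue is concerned.

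When 1 array at a time was left out, the calls between tissues ran from 33 to 52, and the medians ran from -0.47 to -0.25 in complex I, -0.87 to -0.65 in II, -0.56 to -0.31 in III, -0.48 to -0.29 in IV and -0.62 to -0.44 in V. For lithium in cortex the medians ran from -0.09 to 0.03, -0.20 to -0.03, 0.01 to 0.06, -0.08 to -0.02 and -0.08 to -0.00, in the same order, with 0 to 0 calls. In medulla they ran from -0.16 to 0.07, -0.18 to 0.11, -0.05 to 0.20, -0.02 to 0.14 and -0.12 to 0.12, with 0 to 1 calls. The interaction had 0 to 0. The median over the members in medulla was -0.11 without control 30 and 0.09 without lithium-treated 17, so that its sign rests on single arrays.

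Over all clusters, the calls with lithium were 79 in cortex and 190 in medulla, against 288 and 1052 without scan groups, 14 and 37 by the methods' analysis of variance without moderation and 296 and 650 by diet alone without moderation. The interaction had 15, against 357 without scan groups and 9 after centring. In medulla 133 calls were higher and 57 lower, and after centring 101 and 96. Without the filter the tissue comparison had 18055 calls, against 10089. The cause of these differences was not tested.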
